A study of Mus musculus with 221 samples.

Results

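Id1, Id2, Id3 and Id4 encode inhibitors of differentiation, and Bmpr1a, Smad1 and Smad5 encode a receptor and 2 signal transducers of the bone morphogenetic protein (BMP) pathway. These 7 genes were followed over 221 single cells of the mouse medial neocortex at E18.5, as 7 of the 23244 features measured. The genes were chosen by earlier results on these same cells, in which Id1, Id3 and Id4 stood out in radial glia and Id2 in neurons, so their levels in radial glia, against excitatory neurons or intermediate progenitors, are given as a description with no test. The cells came from untreated C57BL/6J embryos, in 2 independent pools of 8 microdissected medial neocortices each (pool 2 gave 99 of the cells). They were captured on a Fluidigm C1 instrument, a microfluidic chip that isolates single cells, and amplified with the SMARTer v4 kit. The animals in a pool cannot be told apart. The pool was therefore the replicate (n = 2), and nothing was compared between treatments or genotypes. No published cell labels were used.

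Id proteins are helix-loop-helix proteins without a DNA-binding region. They pair with E proteins and so keep basic helix-loop-helix factors, many of which drive neuron production, from binding DNA. BMP ligands bind a complex of type I receptors such as BMPR1A and type II receptors, which phosphorylates SMAD1, SMAD5 or SMAD9; these join SMAD4, enter the nucleus and switch on Id genes. In the GRCm38 genome (GENCODE M21) Id2 lies on chromosome 12 (25093799 to 25097140, minus strand), Id4 on chromosome 13 (48261228 to 48266026, plus strand), Bmpr1a on chromosome 14 (34410734 to 34503341, minus strand), Smad1 on chromosome 8 (79338395 to 79399518, minus strand) and Smad5 on chromosome 13 (56703010 to 56742377, plus strand); Id1 and Id3 lie on chromosomes 2 and 4. In the developing neocortex, radial glia are the stem cells, intermediate progenitors are their dividing daughters, and excitatory neurons and migrating interneurons are the postmitotic cells.

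The deposited values are TPM, a measure of transcript abundance scaled to a fixed total in each cell and corrected for transcript length, so that levels of different genes can be set side by side. Every cell has a lowest value, between 1.33 and 2.998 TPM, that it repeats for genes without signal. A gene above this floor was counted as detected. The number of reads behind a value is unknown, and the intervals below cover counting of cells only. Cells had 2146 to 6727 detected genes (median 4035). Clustering on marker genes, without the 7 genes or any other gene of the pathway, gave 30 radial glia-like cells (15 in each pool), 38 intermediate progenitor-like cells (25 and 13), excitatory neuron-like cells numbering 62 and 52 in the pools and 27 interneuron-like cells (16 and 11), and 12 cells stayed unnamed. Eomes, the defining gene of intermediate progenitors, was detected in only 18 of the 38 cells of that class, and Neurod6, a gene of excitatory neurons, was above the floor in all 38 (median 2191 TPM). Most cells of this class therefore carried a neuron transcript at a high level. The radial glia-like class has 2 clusters, of 17 and 13 cells. Markers of endothelial and meningeal cells, which can respond to BMP too, were at the floor in all 30 radial glia-like cells. Pericyte markers were all at the floor in 27 of the 30 cells (highest summed level 31.9 TPM). The same held for microglial markers in 27 cells (highest 30.2 TPM) and for erythroid markers in 22 (highest 4517 TPM).

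Id1 was largely a radial glia transcript in these cells. Of 30 radial glia-like cells 24 had it above the floor (exact 95% interval of the share, 61.4 to 92.3%), against 11 of 38 intermediate progenitor-like (28.9%), 20 excitatory neuron-like (17.5%) and 3 of 27 interneuron-like cells (11.1%). In radial glia-like cells Id1 ranged from 1.62 to 4149 TPM, with a median of 421 TPM. Among excitatory neuron-like cells the median lay at the floor (1.89 TPM) and 6 cells reached 100 TPM. The mean log2 level of Id1 was 7.76 and 7.21 in radial glia-like cells of pools 1 and 2 and 1.68 and 2.26 in excitatory neuron-like cells. Radial glia-like values of both pools lay above those of the neurons, a log2 difference of 5.52 ± 0.58 (SE, n = 2 pools) that belongs to the choice of the gene.

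Id3 reached the highest level of the 4 Id genes in a single cell and was the most uneven within radial glia. Its range over the 30 radial glia-like cells was 1.64 to 14306 TPM with a median of 122.04 TPM, and 24 of 30 cells (61.4 to 92.3%) were above the floor. Many of these detections were slight: 17 of 30 cells (56.7%) had at least 10 TPM, and the same 17 had at least 100 TPM. Id3 was detected in 16 of 38 intermediate progenitor-like (42.1%), 39 excitatory neuron-like (34.2%) and 12 of 27 interneuron-like cells (44.4%). At 10 TPM or more, the excitatory neuron-like share was 16.7%. The mean log2 level was 6.49 and 6.98 in radial glia-like cells of pools 1 and 2, and 2.57 and 2.71 in excitatory neuron-like cells. The difference of 4.09 ± 0.64 belongs to the choice of the gene, as for Id1.

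Id4 was the weakest of the 3 radial glia Id genes. It was found in 21 of 30 radial glia-like cells (50.6 to 85.3%), 6 of 38 intermediate progenitor-like (15.8%), 13 excitatory neuron-like (11.4%) and 5 of 27 interneuron-like cells (18.52%). Its highest value was 559 TPM, and its mean was 103.97 TPM in radial glia-like cells, where Id1 had a mean of 834 TPM and Id3 of 2170 TPM. The mean log2 level was 4.78 and 5.09 in radial glia-like cells of pools 1 and 2, against 2.15 and 1.89 in excitatory neuron-like cells (difference 2.92 ± 0.57). This difference too belongs to the choice of the gene.

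**Figure D1:**
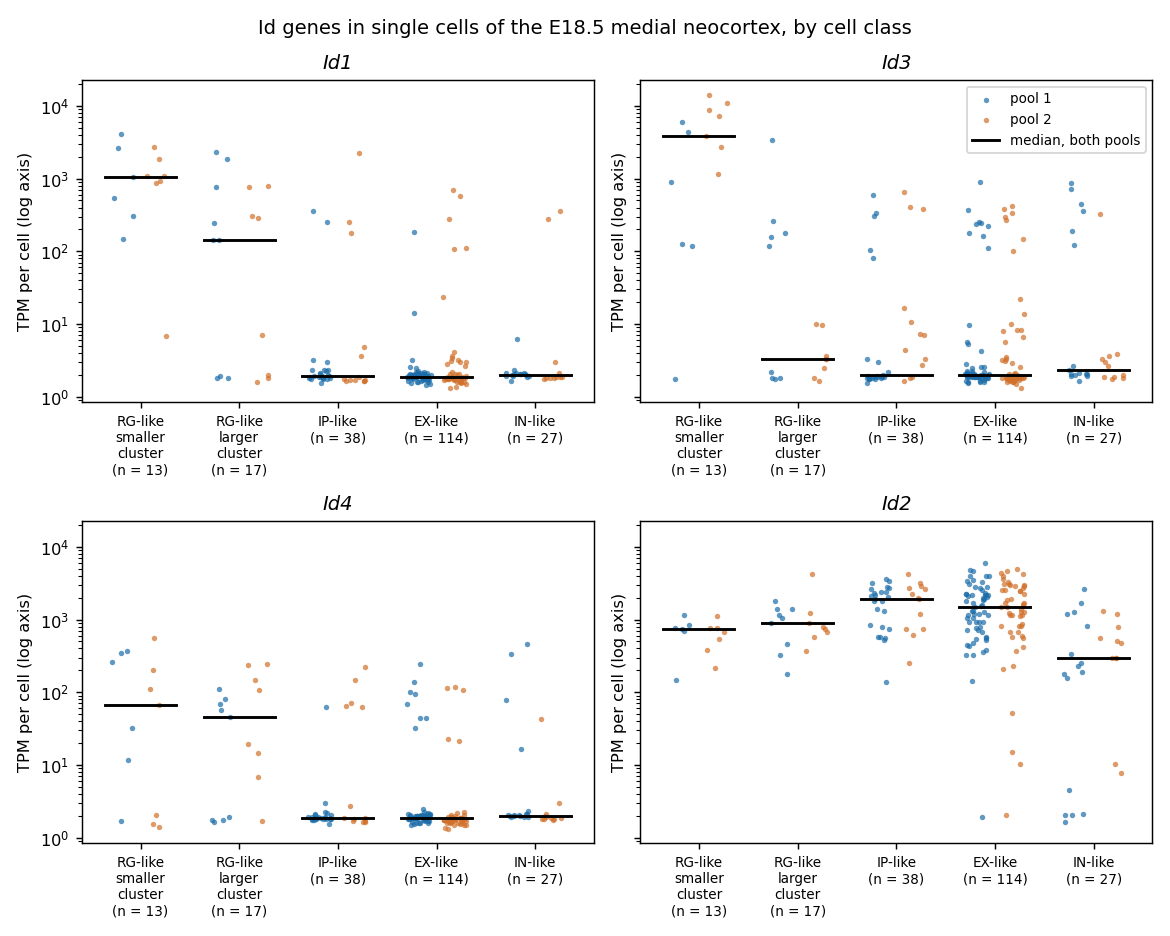
TPM of Id1, Id3, Id4 and Id2 in every cell (log axis), by class and pool, with the median of both pools as a bar; RG-like, IP-like, EX-like and IN-like stand for radial glia-, intermediate progenitor-, excitatory neuron- and interneuron-like. Id1, Id3 and Id4 sit at the floor in most cells outside the radial glia-like clusters, while Id2 is high in nearly every cell and lowest in interneuron-like cells.

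Id2 was present nearly everywhere, with its lowest level in interneuron-like cells. It was detected in 217 of 221 cells, in all 30 radial glia-like, all 38 intermediate progenitor-like and all excitatory neuron-like cells, and in 23 of 27 interneuron-like cells (85.2%, 66.3 to 95.8%). In excitatory neuron-like cells Id2 ranged from 1.92 to 6048 TPM (median 1481 TPM). In intermediate progenitor-like cells its median was 1930 TPM (138 to 4275 TPM), in radial glia-like cells 757 TPM (147 to 4186 TPM) and in interneuron-like cells 293 TPM (1.66 to 2615 TPM). By mean log2 level the order was intermediate progenitor-like (10.51, SD 1.14 over cells), excitatory neuron-like (10.15, SD 1.88), radial glia-like (9.48, SD 0.996) and interneuron-like cells (7.26, SD 3.25). Radial glia-like cells had lower Id2 than excitatory neuron-like cells, with pool means of 9.47 and 9.49 against 10.25 and 10.02 and a difference of -0.65 ± 0.38, small beside those of Id1, Id3 and Id4. Id2 was detected in all cells of both classes, while Id1, Id3 and Id4 differed in detection too. Even in radial glia-like cells the mean of Id2, 896 TPM, was above that of Id1 and Id4 and below that of Id3.

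The start regions of Id4, one of the genes high in radial glia-like cells, and of Id2 are shown because these genes differ in arrangement. RefSeq (GRCm38.p6) gives promoters for 6 of the 7 genes, all except Id1. Printed are the 250 bases before the RefSeq start, cut where the first annotated exon of the gene (GENCODE M21) begins. They run 5′ to 3′ on the gene's strand, with motif matches in capitals. The Id2 stretch stops at an exon and does not reach the start, and its matches begin 231 and 196 bases before the start. The Id4 stretch is chr13:48260866-48261115 on the plus strand, and the Id2 stretch is chr12:25096254-25096342 on the minus strand, in an intron of a longer Id2 transcript.
Id4: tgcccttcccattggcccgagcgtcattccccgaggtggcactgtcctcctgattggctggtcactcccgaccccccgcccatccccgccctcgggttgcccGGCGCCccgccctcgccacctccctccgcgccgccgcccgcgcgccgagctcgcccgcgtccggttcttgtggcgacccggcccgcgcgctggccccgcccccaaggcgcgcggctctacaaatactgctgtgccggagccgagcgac
Id2: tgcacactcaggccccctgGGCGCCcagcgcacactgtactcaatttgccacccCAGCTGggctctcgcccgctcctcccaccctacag
Both strands were searched for GGCGCC, a GC-rich motif of BMP-activated SMADs and for CANNTG, the E-box of basic helix-loop-helix factors; no match overlapped another. Over the 250 bases before the start, Id4 had 1 match to GGCGCC, and Id2 had 1 match to GGCGCC and 1 to CANNTG. Id3 had 0 to both. The 250 bases of Id3 lie in an annotated exon of the gene (GENCODE M21) and were therefore not printed. The 0 for Id3 thus describes exon sequence, unlike the matches in the printed stretches. Among 32851 RefSeq promoters of the same length, 9.59% held GGCGCC and 66.2% held CANNTG. The GC-rich motif was thus present in both printed stretches.

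The receptor and the transducers had mean TPM below those of Id1, Id2, Id3 and Id4 in radial glia-like cells. In excitatory neuron-like cells the mean of Smad1 was above those of Id1 (19.3 TPM), Id3 (43.2 TPM) and Id4 (11.7 TPM), and the means of Bmpr1a and Smad5 were above that of Id4. Bmpr1a, a type I BMP receptor, was detected in 21 of 30 radial glia-like cells (50.6 to 85.3%), 13 of 38 intermediate progenitor-like (34.2%), 36 excitatory neuron-like (31.6%) and 3 of 27 interneuron-like cells (11.1%). Its mean was 47.7 TPM in radial glia-like cells (1.40 to 369 TPM, median 15.3 TPM) and 16.2 TPM in excitatory neuron-like cells. The mean log2 level of Bmpr1a was 3.896 and 4.12 in radial glia-like cells of pools 1 and 2 and 2.37 and 2.78 in excitatory neuron-like cells, a difference of 1.44 ± 0.43.

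Smad1 and Smad5 carry the receptor signal to the nucleus. Smad1 did not share the radial glia pattern. Smad5 had its highest share and mean in radial glia-like cells, with little distance from the other classes. Smad1 was detected in 17 of 30 cells of the radial glia-like class (56.7%), 30 of 38 intermediate progenitor-like (78.9%), 64 excitatory neuron-like (56.1%) and 10 of 27 interneuron-like cells (37.04%). Its mean was 52.4, 95.4, 74.3 and 42.2 TPM in these classes, so the highest mean was in intermediate progenitor-like cells. Smad5 was detected in 66.7, 52.6, 42.98 and 55.6% of the cells of these classes, with means of 29.7, 26.6, 20.5 and 26.1 TPM. The Smad5 intervals overlapped between all 4 classes. Against excitatory neuron-like cells, radial glia-like cells differed by -0.10 ± 0.53 for Smad1 and 0.97 ± 0.46 for Smad5 (0.73 and 1.22 in pools 1 and 2).

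**Figure D2:**
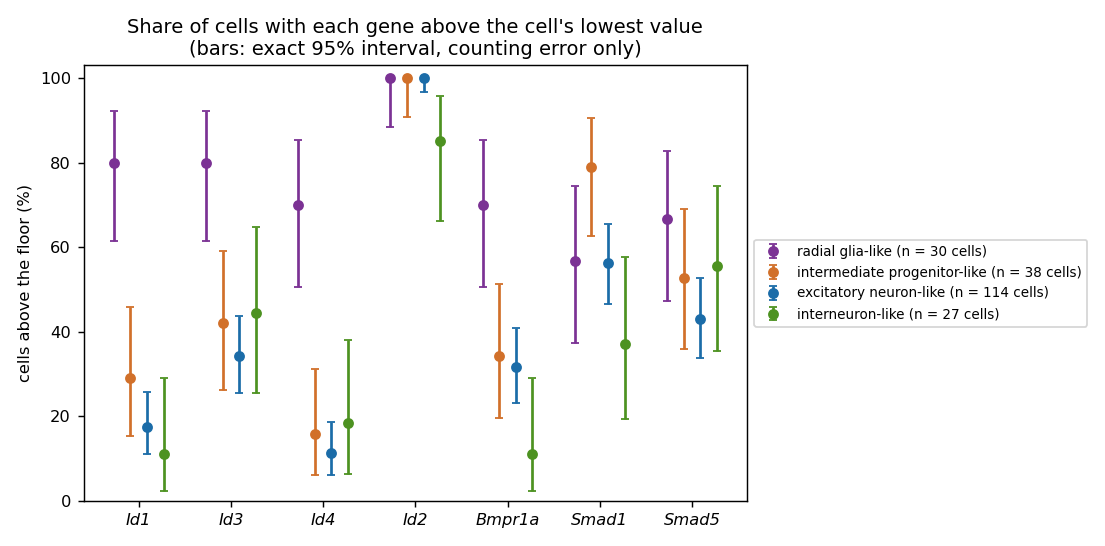
Percent of cells above the floor for the 7 genes in the 4 classes; points are shares and bars exact 95% intervals over cells. Id1, Id3, Id4, Bmpr1a and Smad5 have their highest share in radial glia-like cells (24, 24, 21, 21 and 20 of 30 cells). Id2 is at 100% in 3 classes, and Smad5 intervals overlap throughout.

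Differences between classes were estimated with limma on the mean of log2(TPM + 1) over the cells of each class in each pool, with Benjamini-Hochberg adjustment over all 10704 genes tested and a call where the adjusted p was under 0.05 and the log2 difference was 1 or more in size. The genes were chosen for their levels in these same radial glia-like cells, so their values against intermediate progenitor-like cells are given with no test. Id1 had mean log2 levels of 7.76 and 7.21 against 2.13 and 3.30 in pools 1 and 2 (difference 4.77 ± 0.58). Id3 had 6.49 and 6.98 against 2.81 and 3.93 (3.36 ± 0.64). Id4 had 4.78 and 5.09 against 1.73 and 3.49 (2.33 ± 0.57). For each of the 3 genes, both radial glia-like means lay above both intermediate progenitor-like means. This order belongs to the choice of the genes, and its share over all genes was not computed.

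Among the remaining genes, Bmpr1a differed by 1.29 ± 0.43 (0.90 and 1.67 in pools 1 and 2), Id2 by -1.04 ± 0.38 (-1.01 and -1.08), Smad1 by -1.24 ± 0.53 (-0.77 and -1.71) and Smad5 by 0.62 ± 0.46. The median log2 difference of the 7 genes was 1.29, where it was 0.03 over all genes tested. This gap belongs to the choice of the genes. The median number of detected genes was 4767 in radial glia-like cells, against 4045.5; the part of this gap in the differences was not tested.

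When intermediate progenitor-like cells were set against excitatory neuron-like cells, limma called 0 of 7 genes (1 at an unadjusted p below 0.05, Smad1), and 0.0654% of all genes. The levels in excitatory neurons were among those that chose the genes. The p-values and the count of calls in this comparison do not allow for that choice. Smad1 had the largest of the 7 differences there, 1.15 ± 0.53 higher in intermediate progenitor-like cells (limma adjusted p = 0.78; 0.76 and 1.54 in the pools). Id2 differed by 0.39 ± 0.38, and Id1, Id3 and Id4 by 0.59 to 0.74.

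Interneurons of the neocortex arise outside it, in the ganglionic eminences, and do not come from cortical radial glia. Interneuron-like cells had less Id2 than excitatory neuron-like cells. The levels in excitatory neurons were among those that chose the gene. The p-values and the call for Id2 in this comparison do not allow for that choice. The mean log2 level of Id2 was 6.72 and 8.04 in interneuron-like cells of pools 1 and 2, against 10.25 and 10.02 in excitatory neuron-like cells. The difference was -2.75 ± 0.38 (limma adjusted p = 0.0024), with -3.52 in pool 1 and -1.99 in pool 2. All 4 cells of the study with Id2 at the floor were interneuron-like cells of pool 1. Of the 7 genes, 0 were called higher and 1 lower, where 0.448% of all genes tested were called higher and 0.486% lower. The other 6 genes had limma adjusted p from 0.58 to 0.95, with Smad1 at -1.02 ± 0.53 and Bmpr1a at -0.56 ± 0.43. Interneuron-like cells had fewer genes above the floor (median 3409, against 4027.5), and the part of this in the Id2 difference was not tested. With classes from gates on single markers the Id2 difference was -3.42 but was not called (limma adjusted p = 0.153). It was not called either in the fit whose radial glia-like cells were kept to those with Neurod6 under 100 TPM (difference -2.75, limma adjusted p = 0.056).

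**Figure D3:**
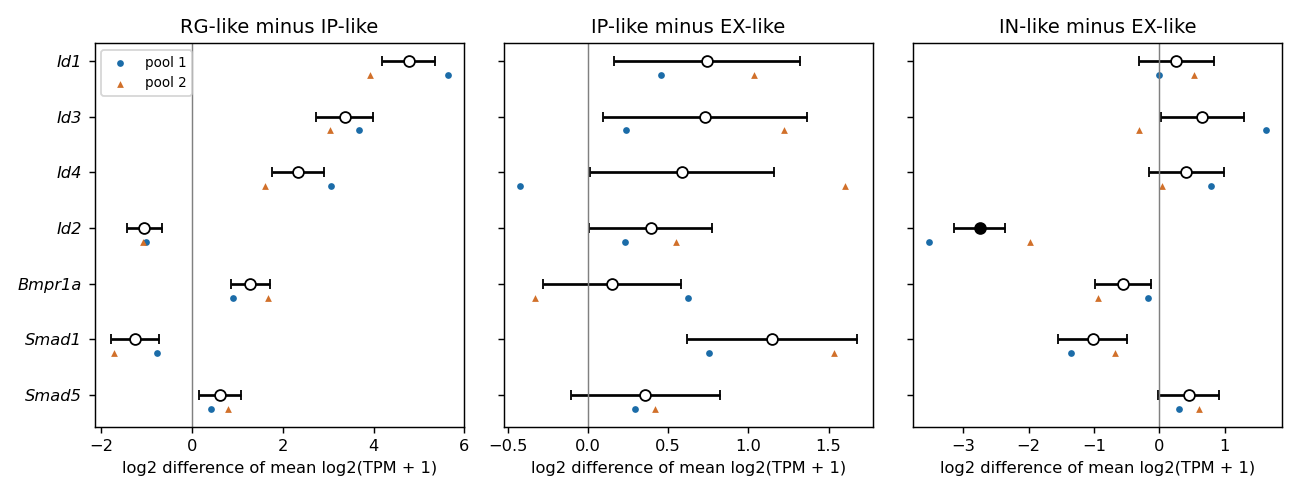
Log2 differences of the 7 genes in 3 comparisons: black circles with bars are the limma estimate ± SE (filled where called in the comparisons with EX-like cells; RG-like minus IP-like has no test), and coloured points are the values within pool 1 and pool 2. Id1, Id3 and Id4 lie above 0 in both pools against intermediate progenitor-like cells, and none of the 7 is called for IP-like minus EX-like. Id2 is called lower in interneuron-like cells. The tests of both comparisons with EX-like cells do not allow for the choice of the genes.

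Within excitatory neuron-like cells the 7 genes were compared by Mef2c, a transcription factor of maturing excitatory neurons. Limma called 0 of 7 genes (1 at an unadjusted p below 0.05, Id3), and 0% of all 10704 genes, of which 1263 were at an unadjusted p below 0.05; with the pool as a block 4 of all genes were called and 0 of the 7. Id3 was 1.15 ± 0.39 higher on the log2 scale in cells with Mef2c above the floor (limma adjusted p = 0.39), where the median over all genes was 0.12. Id3 was detected in 18 of 58 and 18 of 43 cells with Mef2c in pools 1 and 2, and in 0 of 4 and 3 of 9 cells without it. Id2 differed by -0.43 ± 0.32, with means of 1727 and 1675 TPM in cells with Mef2c and 2024 and 2293 TPM in cells without it. A split by Bcl11b, a transcription factor of deep-layer neurons, was not fitted with these classes because 3 cells of pool 2 had it above the floor. The mean of Id2 was 1388 TPM with and 1841 TPM without Bcl11b in pool 1, and 1960 and 1771 TPM in pool 2, so the order differed between the pools.

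Id1 and Id3 varied strongly among the radial glia-like cells, and both had higher medians in the smaller of the 2 clusters. The clusters were seen before this comparison was made, so it has no test. In the smaller cluster Id3 was detected in 12 of 13 cells with a median of 3825 TPM, and in the larger cluster in 12 of 17 cells with a median of 3.31 TPM. At 100 TPM or more these numbers were 12 of 13 and 5 of 17. In pool 2 the clusters did not overlap for Id3: its 7 cells of the smaller cluster had 1159 to 14306 TPM and its 8 cells of the larger cluster 1.64 to 9.86 TPM. In pool 1 they did overlap, with 1.74 to 6036 TPM in 6 cells and 1.74 to 3403 TPM in 9 cells.

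Id1 and Bmpr1a also had higher medians in the smaller cluster, Id4 was detected in similar shares of both, and Id2 had its higher median in the larger cluster. Id1 was detected in 13 of 13 cells of the smaller cluster (median 1042 TPM) and 11 of 17 of the larger (median 144 TPM). Bmpr1a was detected in 10 of 13 and 11 of 17 cells, with medians of 60.9 and 3.44 TPM. For Id4 these numbers were 9 of 13 and 12 of 17, with medians of 66.5 and 45.2 TPM. The median of Id2 was 732 TPM in the smaller and 885 TPM in the larger cluster. Neurod6, a gene of excitatory neurons, went in the opposite direction, with a median of 16.5 TPM in the smaller and 1003 TPM in the larger cluster. Eomes, the defining gene of intermediate progenitors, was detected in 1 of 13 cells of the smaller and 9 of 17 of the larger cluster. The summed level of the 12 radial glia markers had a median of 39803 TPM (12529 to 92403 TPM) in the smaller and 8399 TPM (1962 to 42530 TPM) in the larger cluster, and that of the 9 excitatory neuron markers 98.9 TPM (16.1 to 1004 TPM) and 1292 TPM (296 to 4547 TPM). Olig1, a gene of oligodendrocyte precursors and of glial progenitors, was detected in 9 of 13 and 4 of 17 cells. The astrocyte markers Gfap or Aldh1l1 were above the floor in 9 of 13 cells of the smaller cluster (the summed level of 3 markers had a median of 149.5 TPM, 4.69 to 497 TPM) and 3 of 17 of the larger (5.23 TPM, 4.70 to 231 TPM), and S100b in none. The 5 oligodendrocyte precursor markers were Olig1, Olig2, Pdgfra, Sox10 and Cspg4. All 5 were at the floor in 3 of 13 cells of the smaller and 12 of 17 of the larger cluster. Their summed level had a median of 231.6 TPM (7.61 to 2231 TPM) in the smaller and 8.92 TPM (7.84 to 391 TPM) in the larger cluster. Sox10 was at the floor in all 30 cells. Pdgfra and Cspg4 were at the floor in all 17 cells of the larger cluster but not in all of the smaller. The part of these transcripts in the Id levels was not tested.

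**Figure D4:**
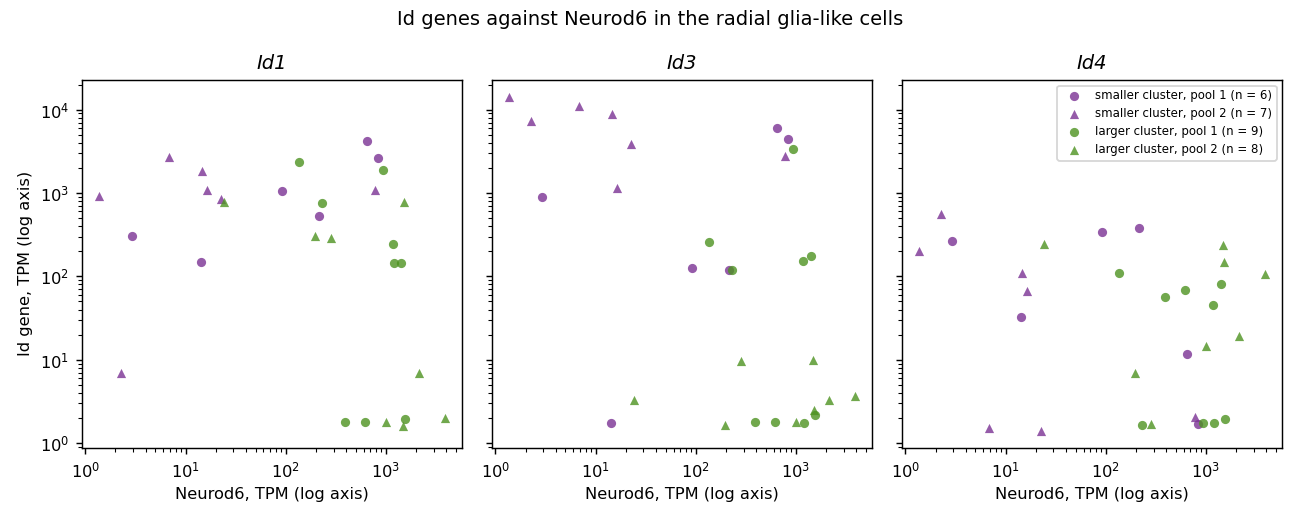
Id1, Id3 and Id4 against Neurod6 in the 30 radial glia-like cells (TPM, log axes), coloured by cluster and shaped by pool. Of the 17 cells with Id3 at 100 TPM or more, 9 also had Neurod6 at 100 TPM or more and 8 did not.

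The difference from intermediate progenitor-like cells was also computed for each cluster, again with no test. With the larger cluster alone, the differences from intermediate progenitor-like cells were 3.23 for Id1, 0.39 for Id3 and 2.08 for Id4. With the smaller cluster alone they were 6.76 for Id1, 6.97 for Id3, 2.75 for Id4 and 2.14 for Bmpr1a. Of the 3 Id genes, Id3 had the widest gap between the clusters.

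Cells often had more than one of the radial glia Id genes. Id1, Id3 and Id4 were all detected in 14 of 30 radial glia-like cells, a pair of them in 11 and a single one in 5, and none of the 30 lacked all 3. Among excitatory neuron-like cells 57 had none of them, 43 had a single one, 13 had a pair and 1 had all 3. Within the radial glia-like class, Id1 and Id3 had a Spearman correlation of 0.72 over the 30 cells, which share 2 pools and differ in genes detected. Id4 ran apart, at -0.12 with Id1 and 0.07 with Id3. With Neurod6, the correlation was -0.45 for Id1, -0.46 for Id3, -0.27 for Id4 and 0.43 for Id2. With Hopx, a radial glia gene named in the study's title, it was 0.41 for Id3, 0.40 for Id4 and 0.24 for Id1. These are descriptions over cells.

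The genes most like each Id gene were ranked by Spearman correlation over the 221 cells, which share pools and depth. For Id1 they were Litaf (0.50), Zfp36l1 (0.49), Mfge8, Hes5 and Spc24. For Id3 they were Gpx8 (0.41), Mlc1 (0.38), Hes5, Fabp7 and Pdpn, and for Id4 Psph (0.41), Abhd4 (0.40), Slc1a3, Gng12 and Sox9. Mfge8, Hes5, Fabp7, Slc1a3 and Sox9 were among the radial glia markers that made the clusters. For Id2 the list was Neurod6 (0.55), Zfp238 (0.52), Tsc22d1, Nfix and Tagln3. Neurod6 was among the excitatory neuron markers that made the clusters. Over the excitatory neuron-like cells alone, Id2 was most like Nfia (0.43), Neurod6 (0.38), Hif1an, Krt10 and Cdk2ap1. Hes5 was in the lists of Id1 and Id3. The lists of Id2 and of Id4 each shared no gene with the list of another Id gene.

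Of 77 other pathway genes in 8 lists, 20 were detected in no cell (38.5% of all features were) and 36 passed the filter of 10 cells (46.8%, against 46.2%). Among 14 ligands 8 were in no cell, among them Bmp2, Bmp4 and Bmp6, and the best detected was Bmp1, a protease despite its name, in 30 of 221 cells. Of the transducers, Smad4, the partner of all receptor-activated SMADs, was detected in 167 cells, at means of 101.1 TPM in radial glia-like and 98.9 TPM in excitatory neuron-like cells, and Smad9 in no cell. Of 11 receptors and co-receptors 8 passed the filter, with Neo1 the best detected. Type II receptor Bmpr2 was in 30 cells and type I receptor Bmpr1b in 14, below the 76 of Bmpr1a. Fkbp1a, which holds type I receptors inactive, was detected in all 221 cells.

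Of the 36 genes, 4 passed as higher in the radial glia-like class and 0 as lower when it was set against excitatory neuron-like cells, where 4.46% of all genes tested were called higher and 0.916% lower, with a median difference of 0.09 against 0.06 over all genes. Hey1, a Notch and BMP target, had means of 127 TPM in radial glia-like and 10.2 TPM in excitatory neuron-like cells and differed by 3.38 ± 0.46 (limma adjusted p = 0.0011). The secreted glycoprotein gene Fstl1 differed by 2.27 ± 0.39 (limma adjusted p = 0.0044) and Bmper, which encodes a BMP-binding protein, by 1.11 ± 0.24 (adjusted p = 0.013). Tgfb2, a ligand of the TGF-beta branch, differed by 1.51 ± 0.35 (limma adjusted p = 0.021; 0.90 and 2.12 in pools 1 and 2). Against intermediate progenitor-like cells, where 2.53% of all genes tested were called higher and 0.523% lower, 3 of the 36 were higher and 0 lower: Hey1 (2.91 ± 0.46, limma adjusted p = 0.0056), Fstl1 (1.65 ± 0.39, adjusted p = 0.037) and Tgfb2 (1.39 ± 0.35, adjusted p = 0.049, but 0.053 and not called with the pool as a block). Against excitatory neuron-like cells, Bmper lost its call in 9 of 16 alternatives, Tgfb2 in 7, Fstl1 in 3 and Hey1 in 1; against intermediate progenitor-like cells Tgfb2 lost it in 10 of 15, Fstl1 in 7 and Hey1 in 3. By list, the 4 genes were 2 of 5 tested secreted antagonists, 1 of 2 other targets and 1 of 4 genes of the TGF-beta branch. None of the 8 receptors, 9 inhibitors inside the cell or 6 E proteins and helix-loop-helix factors tested was called in either comparison. The E protein gene Tcf4, a partner of Id proteins, was detected in all 221 cells, at means of 245 TPM in radial glia-like and 292 TPM in excitatory neuron-like cells.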

How the data were processed

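Values were deposited by the authors as TPM (length-corrected transcript abundance) per gene and cell, summing to 1000000 over 23244 features in each cell; the submitters' processing notes name TopHat2 2.0.14, Bowtie2 2.2.6, Cufflinks 2.2.1 and the mm10 build. Read depth is unknown. The 7 genes and all gene lists were chosen with earlier results of these data known. Cells were clustered (Ward, first 10 principal components of 71 standardized markers, 10 clusters). The naming rule was set after clusters were seen: at least 3 own markers above the floor in 50% of cells and at least 1 among the 10 leading genes. Profiles (mean log2(TPM + 1), at least 4 cells, or 3 with marker gates or few radial glia-like cells) were fitted for all 4 classes and both pools together with limma 3.58.1 in R 4.3.3 (trend, robust, two-sided), leaving out genes detected in under 10 cells and clustering markers. The fit was tested on 1 simulated comparison of radial glia-like with excitatory neuron-like cells. It called 34 of 100 genes changed by a log2 of 2 and 89 of 100 changed by 4, with 3 false calls in the whole draw. Many changes of that smaller size would thus go uncalled. The changed genes were drawn from those above the median in mean level. The noise was normal, with the same spread for a gene in every class. Genes of lower mean level were not changed, so the simulation gives no recovery rate for them. The 7 genes are always named; other pathway genes are named where called or best detected in their list, with a few added after values were seen. Classes of 1 pool come from the same animals; their deviations correlated by 0.0012 to 0.047, and the pool was left out of the model. Doublets were not removed: 19 of 221 cells had both Xist and a Y-linked transcript, 1 of them radial glia-like. No 2 cells were alike beyond a Pearson r of 0.73.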

Additional observations from a re-analysis of the deposited data

How the results depend on the processing

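Results were recomputed under up to 16 alternatives, 5 of them chosen after seeing the data (each radial glia-like cluster alone, radial glia-like cells with Neurod6 under 100 TPM, no cells with globin, no cells with both Xist and a Y-linked transcript). Between radial glia-like and intermediate progenitor-like cells the 7 genes have no test, since these radial glia-like cells chose them. Over 15 alternatives the log2 difference ran from 3.23 to 6.76 for Id1 and from 0.39 to 6.97 for Id3. For Id2 it ran from -1.56 to -0.83. Id4, Bmpr1a and Smad1 kept their sign in all of these alternatives. Smad5 changed sign with marker gates (-0.85) and with pool and suffix as the unit (-0.39). The Id2 call in interneuron-like cells was lost (0 of 7) with marker gates, and in the fit whose radial glia-like cells had Neurod6 under 100 TPM (adjusted p = 0.056). No alternative gave a call among the 7 when intermediate progenitor-like cells were set against excitatory neuron-like cells, or in the Mef2c split. Other pathway genes called against excitatory neuron-like cells numbered 4; they numbered 1 with clusters from the 1000 most variable genes or the larger cluster alone, 2 with a pseudocount of 10 TPM or quantile normalization, and 0 when the log2 was taken of the mean value. The cause was not tested. Over all genes, the 575 calls of that comparison became 52 with clusters from the most variable genes, 304 with pool and suffix as the unit, 147 when the log2 was taken of the mean value, 923 with weights by cells and 170 with the larger cluster alone. The 327 against intermediate progenitor-like cells became 13 with marker gates, 199 with no filter on low values, 180 with quantile normalization, 33 when the log2 was taken of the mean value, 11 with the larger cluster alone and 207 without globin cells. The 7 of intermediate progenitor-like cells against excitatory neuron-like cells became 0 with 8 clusters, marker gates or log2 taken of the mean, 3 with no filter, 1 with pool and suffix as the unit, 4 with quantile normalization and 44 with weights. The 100 between interneuron-like and excitatory neuron-like cells became 40 with the most variable genes, 0 with marker gates, 60 with pool and suffix as the unit, 33 when the log2 was taken of the mean value and 197 with weights. With the pool as replicate block the 0 calls of the Mef2c split became 4 (1 with pool and suffix as the unit), Tgfb2 against intermediate progenitor-like cells lost its call (adjusted p = 0.053), and no other call of a named gene changed. Without pool 1 or pool 2 there is no test; the values were 3.91 and 5.63 for Id1, 3.05 and 3.68 for Id3 and 1.61 and 3.06 for Id4 against intermediate progenitor-like cells, and -1.99 and -3.52 for Id2 in interneuron-like cells. With detection at 10 TPM, 5 of 28 shares of cells left their interval. Clusters from the most variable genes gave no intermediate progenitor-like class. The Bcl11b split had enough cells for a fit under 4 settings (clusters from the most variable genes, marker gates, pool and suffix as the unit, and the setting with Neurod6 under 100 TPM, which asked for 3 cells), where limma called 0 of all genes and 0 of the 7 (468 to 848 and 0 to 2 at an unadjusted p below 0.05).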

Other observations

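The 12 unnamed cells were in no comparison. A cluster of 7 cells of pool 2, 6 of them with beta-globin of at least 100 TPM and 6 with suffix B, had Id1 above the floor in 4 cells, Id3 in 5 (mean 383 TPM) and Id4 in 2, and Id2 in all 7 (mean 1944 TPM). A cluster of 4 cells of pool 1 had Id1 above the floor in 2, Id3 in 1 and Id4 in 0, and Id2 at a mean of 2987 TPM. The last cell, with microglial markers, had Id2 at 241 TPM and Id1, Id3 and Id4 at the floor.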
